A study of Mus musculus with 3 samples.

Results

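Imprinted genes that are known for roles in fetal and mesenchymal growth were followed through the differentiation of adult mouse testis cells into Leydig-like cells in culture. The genes were Dlk1, H19, Meg3, Rian, Peg3, Mest, Plagl1, Ndn, Kcnq1ot1 and Grb10, taken by name, and all 10 were among the 24698 genes of the merged count table with at least 5 counts on each day. An imprinted gene is read from the copy of 1 parent, because DNA methylation set down in the egg or sperm marks the copies differently. Mest, Peg3, Plagl1, Ndn, Dlk1 and Kcnq1ot1 are read from the paternal copy in most tissues, and H19, Meg3, Rian and Grb10 from the maternal copy. Many imprinted genes are high in the fetus, decline after birth in most organs and persist in some mesenchymal and endocrine cells of the adult. The mice were of the inbred C57BL/6 strain, so the reads could not be assigned to a parental copy, and the levels below are totals over both.

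Testes came from adult C57BL/6 males of 8–12 weeks, and cells sorted as Sca1+/cKit- were plated on Matrigel at 100000 cells per well. All groups shared 18 h of recovery and 3 days of expansion in PdgfAA, PdgfBB and Fgf2 at 10 ng/ml each with the Smoothened agonist SAG at 0.5 uM, and the differentiation medium then added LiCl2 at 5 mM and DAPT, which blocks Notch cleavage, at 10 uM. Cells were taken on days 4, 7 and 14 for Drop-seq, a droplet method that counts unique molecular identifiers (UMIs) per gene and cell barcode near the 3′ end of each RNA. There was 1 library per day, so day and library cannot be told apart. The paper describes the cells of day 4 as exposed to expansion medium. It puts days 7 and 14 at 3 and 10 days after the change to differentiation medium. A comparison with day 4 thus also spans that change, which cannot be told apart from day and library. No test was made, and all intervals below are 95% intervals that cover counting error only. The sorted cells were a mixed primary population from wild-type males and were not selected by Tcf21 lineage, which limits what a state on 1 day says about descent.

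Positions of the members are given on GRCm38 from GENCODE M21. On chromosome 12, Dlk1 (chr12:109452823-109463336) is followed on the same strand by Meg3 (chr12:109541001-109571726) after 77664 bases, and by Rian (chr12:109603940-109661716) after a further 32213 bases. On chromosome 7, H19 (chr7:142575529-142578143) and Kcnq1ot1 (chr7:143203458-143296549) lie on the minus strand near the far end, and Kcnq1ot1 runs antisense inside Kcnq1, of which 1 UMI was seen in all. Peg3 (chr7:6703892-6730431) and Ndn (chr7:62346569-62350262) are also on chromosome 7. Plagl1 is at chr10:13060504-13131694 and Grb10 at chr11:11930508-12038683. Mest (chr6:30723547-30748465) overlaps Copg2, on the other strand, by 912 bases. Whether the counting used strand is not given in the sources used here, so Mest and Copg2 reads in the overlap could not be told apart, and Copg2 itself held 79, 121 and 65 UMIs on days 4, 7 and 14.

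RNAs of 4 members carry microRNAs inside them, 13 mature sequences in the RefSeq table of GRCm38.p6 with 13 different seeds. H19 and Mest hold 2 each, Meg3 3 and Rian 6. One is shown per host gene, with the seed (bases 2 to 8) in capitals, to show what these host RNAs carry besides their own sequence. None of these microRNAs was measured here.
mmu-miR-335-5p, inside Mest (chr6:30741314-30741336, plus strand): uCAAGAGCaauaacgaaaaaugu
mmu-miR-675-5p, inside H19 (chr7:142577112-142577133, minus strand): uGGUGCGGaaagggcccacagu
mmu-miR-770-5p, inside Meg3 (chr12:109563710-109563731, plus strand): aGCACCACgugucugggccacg
mmu-miR-370-3p, inside Rian (chr12:109618305-109618326, plus strand): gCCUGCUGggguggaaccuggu

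Imprints are written on CG dinucleotides, and the promoters of Mest and Plagl1, the members with the largest ratios between days and between states that held under each alternative run, are shown with every CG in capitals. Each runs from 250 bases before to 50 bases after a RefSeq gene start of GRCm38.p6, and methylation was not measured. Of the members, 9 had an entry, with 13 entries in all, and the Mest entry shown is 1 of 3.
Mest (chr6:30737800-30738099, plus strand): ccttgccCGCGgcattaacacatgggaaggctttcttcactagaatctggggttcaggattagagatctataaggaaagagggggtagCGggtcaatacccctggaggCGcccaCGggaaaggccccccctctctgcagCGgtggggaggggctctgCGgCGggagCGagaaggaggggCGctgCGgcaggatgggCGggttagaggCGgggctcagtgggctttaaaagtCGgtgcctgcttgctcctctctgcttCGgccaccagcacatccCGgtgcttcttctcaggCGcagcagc
Plagl1 (chr10:13090582-13090881, plus strand): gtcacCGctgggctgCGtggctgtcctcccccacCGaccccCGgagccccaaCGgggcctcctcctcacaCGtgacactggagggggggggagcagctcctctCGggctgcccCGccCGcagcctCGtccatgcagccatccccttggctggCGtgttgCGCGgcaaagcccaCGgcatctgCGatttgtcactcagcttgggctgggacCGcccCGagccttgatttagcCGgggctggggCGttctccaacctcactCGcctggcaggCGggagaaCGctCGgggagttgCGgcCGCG

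The Mest window held 17 CGs and the Plagl1 window 26. Over the 32851 promoters of the table the median was 7, and 31.4% held at least as many as Mest and 16.9% at least as many as Plagl1. The other entries ran from 0 CGs for Rian to 45 for 1 of the Grb10 starts, a number reached by 1.93% of promoters.

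On days 4, 7 and 14 the merged table held 2980, 2171 and 973 cells, with 12677110, 11627440 and 5324400 UMIs and a median of 2886.5, 3285 and 3272 UMIs per cell. No cell barcode was shared between libraries. Within libraries, however, 1304, 1026 and 504 cells (43.8%, 47.3% and 51.8%) had a barcode that matched another cell's over its first 11 bases, so 1 bead may stand as several cells. Of the 752 sets of such barcodes, 567 (75.4%) lay wholly in 1 cell state. Sums over a whole day are not changed by this, but counts of cells and the assignment of cells to states are. Some counts of cells are given also with such barcodes joined, which left 2027, 1414 and 601 cells. Counts and shares of cells in a cluster or state, and the joint detection of members, are given without joining. In those, 1 bead may count several times. Cells that hold a doublet could not be removed, as Scrublet called 3 of 6124. Markers of other testis cells were present at low level. The summed level of 9 macrophage markers was 11.2, 28.6 and 243 counts per 1000000 UMIs (CPM) on days 4, 7 and 14, led by Lyz2, with C1qa at 0 on days 4 and 7 and C1qb at 0 on day 14. For 7 Sertoli markers it was 52.1, 50.8 and 190 CPM, with Amh at 0 on each day and Cst9 on days 4 and 7. For 6 germ cell markers it was 116, 19.2 and 39.1 CPM, with Ddx4 at 0 on day 7. For 9 endothelial markers it was 23.1, 22.6 and 15.6 CPM, with 4 at 0 on days 7 and 14, Cldn5 and Esam among them. Their part in the results below was not tested.

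Between days, the members differed in direction. Mest, Dlk1 and Peg3 were lower on day 7 than on day 4, Grb10 was lower and Peg3 higher on day 14 than on day 7, and Plagl1 was highest on day 14. All values by day are for the whole culture, so a level mixes the cell states present, and fewer cells of a type and less RNA per cell cannot be told apart in them.

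**Figure D1:**
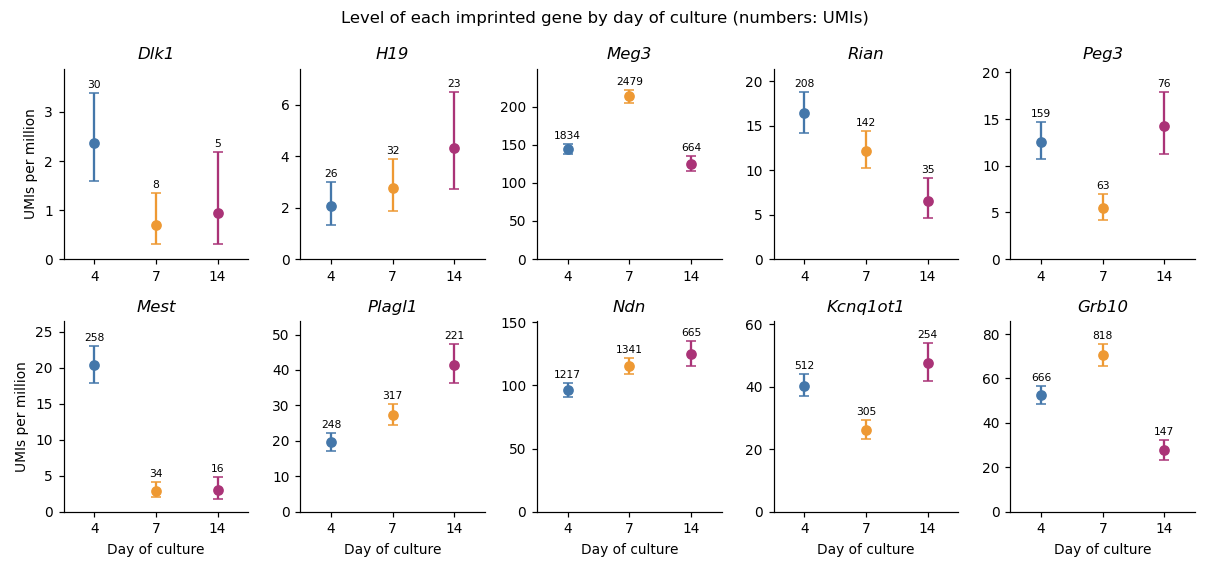
Level of each member (CPM, linear axis from 0, separate for each gene) against culture day, 1 library per day, with exact Poisson 95% intervals as bars and the number of UMIs beside each point. Mest was at 20.4 CPM on day 4 and near 3 CPM on days 7 and 14, while Plagl1 was at 19.6, 27.3 and 41.5 CPM.

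Mest, which encodes a membrane enzyme of the alpha/beta hydrolase fold and is widely used as a fetal growth marker, had 258, 34 and 16 UMIs on days 4, 7 and 14. These were 20.4 CPM (17.9–23.0), 2.92 CPM (2.02–4.09) and 3.01 CPM (1.72–4.88). Only day 4 stood apart, and the intervals of days 7 and 14 overlapped. The level was 6.96-fold lower on day 7 than on day 4 (ratio 0.144, interval 0.0974–0.206), and 14 of 14 alternatives kept it below 0.5, from 0.125 to 0.184. Alternatives that change only the minimum of UMIs leave a ratio as it was, in this count and in those below. Within proliferating progenitor-like cells alone Mest stood at 26.2 CPM on day 4 and 4.48 CPM on day 7.

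Dlk1, a transmembrane protein with EGF repeats that holds back the maturation of mesenchymal precursors, was near the limit of detection. It had 30, 8 and 5 UMIs, or 2.37 CPM (1.60–3.38), 0.688 CPM (0.297–1.36) and 0.939 CPM (0.305–2.19), where 3 UMIs correspond to 0.237, 0.258 and 0.563 CPM. The day 4 level lay above that of day 7, with a ratio of 0.291 (0.115–0.649), while days 7 and 14 could not be separated at 13 UMIs. With 1 CPM added to each day the ratio became 0.501.

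Peg3, a large zinc finger protein of the paternal copy, had 159, 63 and 76 UMIs. Its level of 12.5 CPM on day 4 (10.7–14.7) was close to the 14.3 CPM of day 14 (11.2–17.9), and day 7 lay below both at 5.42 CPM (4.16–6.93). The ratio of day 7 to day 4 was 0.432 (0.317–0.582) and that of day 14 to day 7 was 2.63 (1.86–3.74). With each cell thinned to 1500 UMIs the ratios were 0.586 and 1.70, short of 2-fold, and with equal weight per cell the ratio of day 7 to day 4 was 0.585. One day 4 cell held 14 of the 159 UMIs, and the level outside it was 11.4 CPM.

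Plagl1, a zinc finger transcription factor (also known as Zac1) that regulates other imprinted genes, was higher on each later day. It had 248, 317 and 221 UMIs, or 19.6 CPM (17.2–22.2), 27.3 CPM (24.3–30.4) and 41.5 CPM (36.2–47.4), and no 2 of these intervals overlapped. Day 14 was 2.12-fold above day 4 (1.76–2.55). With equal weight per cell the ratio was 1.96 and under a stricter filter 1.98.

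Ndn encodes necdin, a MAGE family protein that restrains cell division. It changed little between days, from 96.0 CPM (1217 UMIs) on day 4 to 115 CPM (1341 UMIs) on day 7 and 125 CPM (665 UMIs) on day 14, and its ratio of day 14 to day 4 was 1.30 (1.18–1.43). Grb10 encodes an adaptor that dampens insulin and IGF1 receptor signalling. It went from 52.5 CPM (666 UMIs) to 70.4 CPM (818 UMIs) and then to 27.6 CPM (147 UMIs). The last step was 2.55-fold downward (ratio 0.392, interval 0.327–0.468), and 14 of 14 alternatives kept it, from 0.353 to 0.448.

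The non-coding members also differed from each other. Meg3, the maternal long RNA next to Dlk1, had 1834, 2479 and 664 UMIs, or 144.7 CPM (138–151), 213.2 CPM (205–222) and 124.7 CPM (115–135), with day 7 highest and the 3 intervals apart. Rian, the RNA downstream of Meg3 that carries small nucleolar RNAs, was lower on each later day, at 16.4, 12.2 and 6.57 CPM (208, 142 and 35 UMIs). Day 14 was 2.5-fold below day 4 (ratio 0.401, interval 0.272–0.575), or 0.677 with equal weight per cell. The neighbours on chromosome 12 differed in course, as Meg3 was 1.47-fold higher (1.39–1.57) on day 7 than on day 4, and Rian and Dlk1 were at 0.744 (0.597–0.926) and 0.291 of their day 4 levels.

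Kcnq1ot1, the paternal antisense RNA that silences Cdkn1c and other neighbours in cis, stood at 40.4 CPM (512 UMIs), 26.2 CPM (305 UMIs) and 47.7 CPM (254 UMIs). The ratio of day 7 to day 4 was 0.649 (0.562–0.750), and day 14 lay 1.82-fold above day 7 (1.53–2.16). The median ratio of all genes with at least 100 UMIs was 0.876 for day 14 to day 7 and 0.914 for day 14 to day 4, a shift of -0.19 and -0.13 on the log2 scale. Relative to that shift, the ratios of day 14 to day 7 were 2.08 for Kcnq1ot1, 3.01 for Peg3, 1.74 for Plagl1 and 0.448 for Grb10.

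H19, the maternal RNA that shares enhancers with Igf2, had 26, 32 and 23 UMIs, or 2.05, 2.75 and 4.32 CPM. The ratio of day 14 to day 4 was 2.11 (1.15–3.84). All 23 UMIs of day 14, however, came from 1 barcode among 973, a differentiating Leydig-like cell with 11416 UMIs in all, which also held 19 Meg3 and 8 Plagl1 UMIs. Outside that cell the day 14 library had 0 H19 UMIs, which allows up to 0.563 CPM, so the higher level of day 14 rested on that cell and turned to 0 without it. On day 4 the leading cell held 5 of 26 UMIs and on day 7 it held 8 of 32, with 1.66 and 2.06 CPM outside it.

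**Figure D2:**
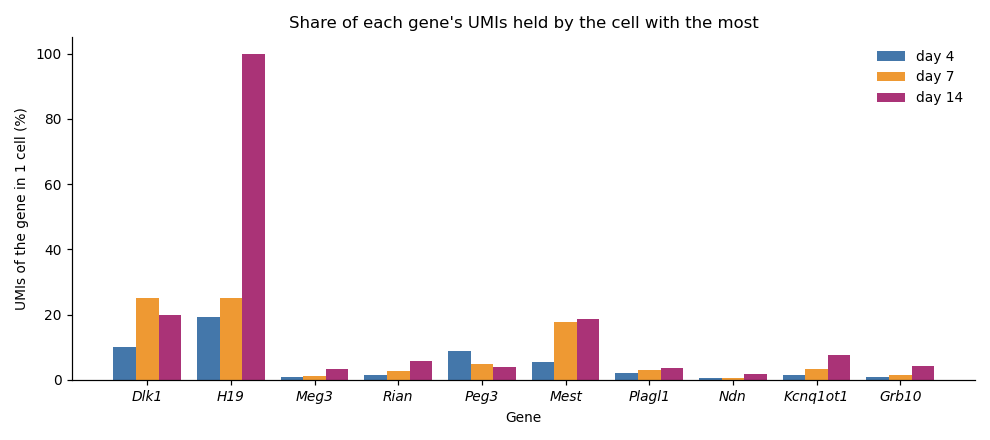
Percent of a member's UMIs that lay in the 1 cell with the most of them (linear axis from 0), by gene and culture day, with barcodes that share 11 bases joined. H19 on day 14 reached 100%, and the other bars were at or below 25%.

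By number, 3 of the 10 members tested were over 2-fold lower on day 7 than on day 4 (Dlk1, Mest and Peg3) and 0 were higher. A member or gene counted as tested with at least 20 UMIs in the pair, and of all 12954 genes tested 4.33% were over 2-fold lower and 5.39% higher. From day 7 to day 14, 1 of 9 members tested was higher (Peg3) and 1 lower (Grb10), beside 12.4% and 16.6% of all genes. From day 4 to day 14, 2 of 10 were higher (Plagl1 and H19) and 3 lower (Dlk1, Mest and Rian), beside 16.3% and 17.6%. The median ratios of the members were 0.973, 1.08 and 1.00, against 1.07, 0.905 and 0.962 over all genes tested. The shares from day 7 to day 14 lay near those of all genes. Comparisons that share a day share that library.

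Of the 33 other imprinted genes in a list set beside the members, 30 were in the table. Between days 4 and 7, 24 were tested, of which 1 was over 2-fold higher (Peg13 at 2.18) and 4 lower. The 4 were Nnat at 0.132, Slc38a4, Zdbf2 and Cdkn1c, the growth inhibitor beside Kcnq1ot1, at 0.181. From day 7 to day 14, 4 of 21 were higher and 1, Peg12, lower. The higher genes were Igf2 at 2.78, Cdkn1c at 3.41, Zrsr1 at 2.80 and Gnas, which encodes the stimulatory G protein subunit, at 3.89. Of the 39 Cdkn1c UMIs of day 14, 13 were in 1 cell (barcodes joined), and without that cell the ratio was 2.27. From day 4 to day 14, 4 of 24 were higher (Igf2, Gnas, Zrsr1 and Peg13) and 4 lower (Nnat, Peg12, Zdbf2 and Slc38a4). Cdkn1c, like Peg3, was lowest on day 7, at 11.9, 2.15 and 7.32 CPM. Igf2 stood at 9.54, 8.51 and 23.7 CPM, and H19 outside the 1 cell was at 0 UMIs on day 14.

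Cell states were taken from 11 clusters made without the members or the other imprinted genes. The states were named from marker lists, and 9 clusters received a name. They were proliferating progenitor-like (clusters 3 and 8, with 16 and 12 of 16 markers passing), differentiating myofibroblast-like (clusters 0 and 4, 10 and 13 of 13), ECM myofibroblast-like (clusters 2 and 6, 11 and 14 of 14), differentiating Leydig-like (clusters 5 and 9, 14 and 7 of 14) and Leydig-like (cluster 7, 12 of 12). The 838 cells of cluster 1, led by macrophage and sperm genes at a median of 1211 UMIs, and the 17 cells of cluster 10 were not named. The highest list for cluster 1 was differentiating myofibroblast-like, with 4 of 13 markers passing. Unnamed cells were 793 of the 2980 of day 4 (26.6%) and entered no comparison of states. The names are rebuilt and may differ from those of the study. In 8 groups of 1 state on 1 day there were at least 50 cells. These were 588 proliferating progenitor-like, 1459 differentiating myofibroblast-like and 98 differentiating Leydig-like cells on day 4, then 473 proliferating progenitor-like, 1283 ECM myofibroblast-like and 307 differentiating Leydig-like cells on day 7, and 543 differentiating Leydig-like and 413 Leydig-like cells on day 14. Most of the differentiating Leydig-like cells of day 7 (255) were in cluster 9, and most of those of day 14 (533) in cluster 5. The name of cluster 9 was the least certain. Its leading genes were Eln, Mfap4 and Fmod, and interstitial progenitor-like markers came next. They came next in cluster 5 too, with a median log2 ratio of 1.43 against 1.75 for the differentiating Leydig-like markers. In 3 of the other clusterings the cluster led by Eln stayed unnamed, with 282, 280 and 252 cells of day 7. There the interstitial progenitor-like markers ranked first, with a median log2 ratio of 0.91–0.94, above the differentiating Leydig-like markers at 0.66–0.69, so the name of these cells was not settled.

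**Figure D3:**
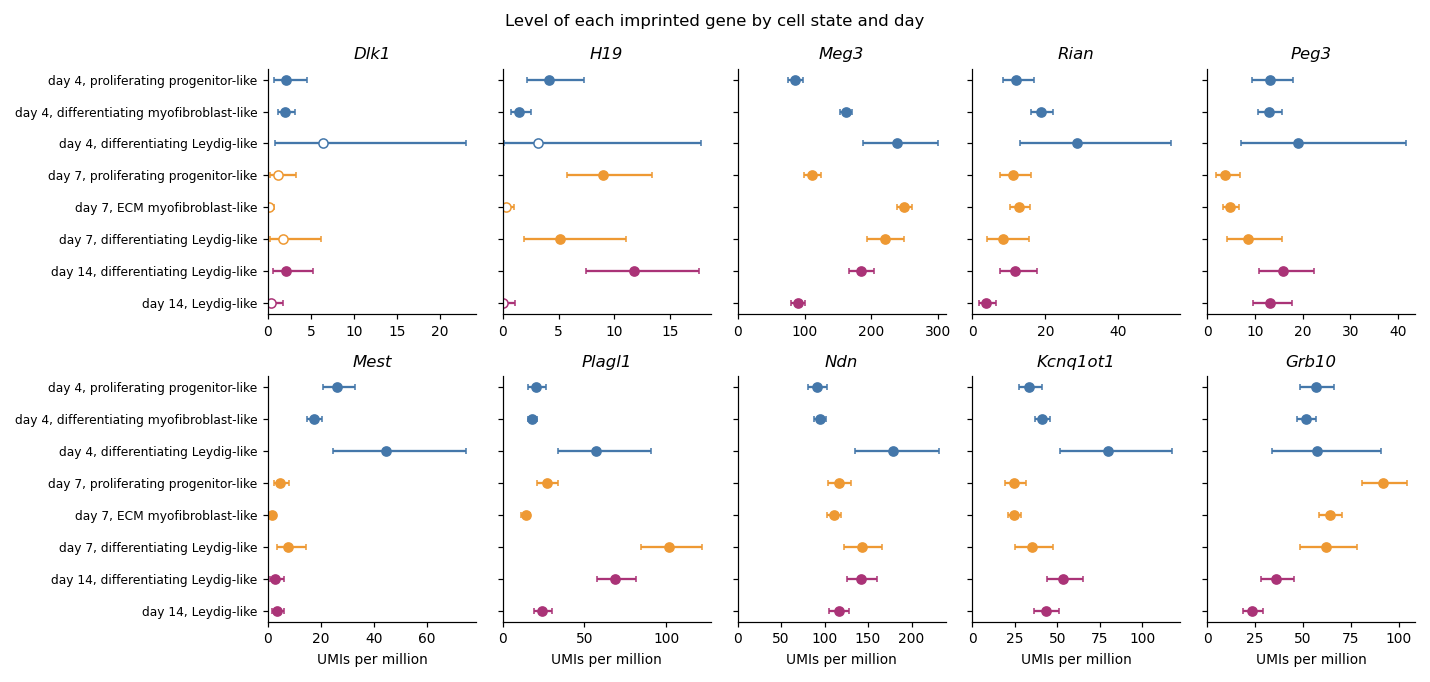
Level of each member (CPM, linear axis from 0, separate for each gene) in the 8 groups of 1 cell state on 1 day, with exact Poisson 95% intervals as bars and open points for 3 UMIs or fewer. Plagl1 was highest in differentiating Leydig-like cells of day 7 at 102 CPM, and Meg3 was lowest in the day 4 proliferating progenitor-like and day 14 Leydig-like cells at 85.9 and 90.4 CPM.

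The clearest difference between states was in Plagl1. On day 7 it stood at 102 CPM (84.5–122, 120 UMIs) in differentiating Leydig-like cells, 106 of those UMIs being in cluster 9 of unsettled name, at 26.9 CPM (21.0–33.9, 72 UMIs) in the proliferating progenitor-like state and at 13.9 CPM (11.4–16.9, 103 UMIs) in ECM myofibroblast-like cells. On day 4 the differentiating Leydig-like cells were also highest, at 57.3 CPM (34.0–90.6, 18 UMIs), against 20.4 and 18.1 CPM in the proliferating progenitor-like and differentiating myofibroblast-like cells. On day 14 it was at 68.9 CPM (57.8–81.6, 135 UMIs) in differentiating Leydig-like cells and 24.3 CPM (19.2–30.3, 79 UMIs) in Leydig-like cells. On each day the differentiating Leydig-like interval lay above those of the other states named here.

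The day 7 level in differentiating Leydig-like cells was 7.31-fold that in ECM myofibroblast-like cells (5.57–9.61), and 17 of 17 alternatives kept it above 2-fold, from 5.11 to 8.32. These included the 3 clusterings in which the cluster led by Eln had no name. There that cluster, pooled with the 32, 30 and 29 day 7 cells named differentiating Leydig-like, gave 7.42, 7.59 and 7.02. No value was computed for that cluster alone. Clusters 9 and 5 of day 7 stood at 103 and 95.9 CPM, and the interval of their ratio held 1 (1.07, 0.611–2.03). Plagl1 was itself among the 10 leading genes of cluster 9, although it was left out of the clustering. On day 14 the Leydig-like level was 2.84-fold below the differentiating Leydig-like level (ratio 0.353, interval 0.264–0.469), which 17 of 17 alternatives kept, from 0.308 to 0.399. Beside the higher Plagl1 level of the whole culture on later days, the share of differentiating Leydig-like cells was 3.29% on day 4, 14.1% on day 7 and 55.8% on day 14. Within that state Plagl1 stood at 57.3, 102 and 68.9 CPM on these days. The part of the share in the level of the whole culture was not tested.

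Within the differentiating myofibroblast-like state of day 4, Plagl1 and Mest differed between the clusters. Plagl1 was at 24.5 CPM in cluster 0 and 8.66 CPM in cluster 4, a ratio of 2.84 (1.88–4.42). Mest was at 25.4 and 5.97 CPM, a ratio of 4.25 (2.64–7.20). Cluster 0 was led by F3, Ifitm1 and Ifit3 and also carried interstitial progenitor-like markers, while cluster 4 had Hbegf and Ankrd1 among its leading genes.

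Meg3 was low in dividing cells. On day 4 it was at 85.9 CPM (75.6–97.3, 249 UMIs) in proliferating progenitor-like cells and 161 CPM (153–170, 1322 UMIs) in differentiating myofibroblast-like cells, and on day 7 at 112 CPM (99.4–125, 299 UMIs) against 249 CPM (238–261, 1842 UMIs) in ECM myofibroblast-like cells. The ratios were 0.533 (0.464–0.611) and 0.448 (0.395–0.507). The day 7 ratio was below 0.5 in 16 of 17 alternatives and 0.521 after thinning. Nuclear RNAs differed the same way, with ratios of 0.746 and 0.518 for Malat1 and 0.684 and 0.322 for Neat1, and their part in the Meg3 difference was not tested.

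The gap in Meg3 was found inside the proliferating state as well. In cluster 3, which was led by mitotic genes such as Cenpf, Hmmr and Cdc20, Meg3 was at 62.8 CPM on day 4 and 73.8 CPM on day 7. In cluster 8, which was led by genes of DNA replication such as Ccne2, Hells and Rrm2, it was at 124 and 151 CPM. The ratios of cluster 3 to cluster 8 were 0.507 (0.392–0.656) and 0.490 (0.382–0.627). Between the same clusters the ratios were 0.881 and 0.746 for Malat1, and 0.948 (0.620–1.47) and 1.25 (0.836–1.87) for Neat1.

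On day 14 Meg3 was also lower in Leydig-like than in differentiating Leydig-like cells, at 90.4 CPM (80.4–101, 294 UMIs) against 184 CPM (166–204, 361 UMIs). The ratio was 0.491 (0.419–0.574), and 6 of 17 alternatives put it between 0.501 and 0.585. Rian differed the same way, at 3.69 CPM (12 UMIs) against 11.7 CPM (23 UMIs), a ratio of 0.314 (0.143–0.658). Malat1 was at a ratio of 0.957, and Neat1 was higher in Leydig-like cells at 1.62. The Leydig-like cells had a median of 5625 UMIs and the differentiating Leydig-like cells 2205.

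Mest and H19 had higher summed levels in the proliferating than in the myofibroblast-like state, on few counts, and for Mest not in each cluster. On day 7 Mest was at 4.48 CPM (12 UMIs) in proliferating progenitor-like, 1.62 CPM (12 UMIs) in ECM myofibroblast-like and 7.64 CPM (9 UMIs) in differentiating Leydig-like cells. Against the ECM myofibroblast-like cells these were ratios of 2.76 (1.14–6.72) and 4.71 (1.75–12.2). Past 2-fold with at least 20 UMIs, the first was kept in 15 of 17 alternatives and the second in 10 of 17, with 15 UMIs and a ratio of 2.28 without the leading cells. Within the proliferating state of day 7, Mest was at 7.56 CPM (10 UMIs) in cluster 8 and at 1.48 CPM (2 UMIs) in cluster 3, close to the ECM myofibroblast-like level. On day 4 Mest was at 26.2 CPM (76 UMIs) in dividing and 17.4 CPM (143 UMIs) in differentiating myofibroblast-like cells, a ratio of 1.5 (1.12–2.0). With states taken from a clustering in which barcodes that share 11 bases were joined, the ratio was 4.11. That clustering put 976 in place of 1459 cells of day 4 in the differentiating myofibroblast-like state. Cluster 0 of the differentiating myofibroblast-like state, at 25.4 CPM, was close to the dividing cells.

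For H19 the proliferating progenitor-like cells held 12 of the 26 UMIs of day 4 and 24 of the 32 of day 7, and the ECM myofibroblast-like cells of day 7 held 2. The ratios were 2.83 (1.16–6.88) on day 4 and 33.1 (8.23–289) on day 7. Without the leading cell of each group they were 3.64 on 16 UMIs and 44.2 on 17 UMIs, under the 20 UMIs needed for a call. In day 14 Leydig-like cells H19 had 0 UMIs, which allows up to 0.923 CPM, and the 23 UMIs of the differentiating Leydig-like cells were those of the 1 cell.

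Grb10, Ndn, Kcnq1ot1 and Peg3 did not pass 2-fold between any pair of states compared, although Peg3 did so for the day 7 differentiating Leydig-like cells in some of the alternatives. Grb10 was highest in the proliferating progenitor-like cells of day 7, at 91.9 CPM (80.8–104) against 64.1 CPM (58.5–70.1) in ECM myofibroblast-like cells, and lowest in the Leydig-like cells of day 14, at 23.4 CPM (18.4–29.2). Ndn ran from 91.4 CPM in day 4 proliferating progenitor-like cells to 178 CPM in day 4 differentiating Leydig-like cells, and in that order of 8 groups neighbouring intervals overlapped except between 94.8 CPM in day 4 differentiating myofibroblast-like and 111 CPM in day 7 ECM myofibroblast-like cells. Kcnq1ot1 was at 24.6–24.7 CPM in the day 7 proliferating and ECM myofibroblast-like cells and at 79.6 CPM (51.5–118, 25 UMIs) in the day 4 differentiating Leydig-like cells. Peg3 was at 3.74, 4.73 and 8.49 CPM in the states of day 7 and between 12.9 and 19.1 CPM in those of days 4 and 14. The day 7 values rest on 10, 35 and 10 UMIs, and the interval of the highest, in differentiating Leydig-like cells, reached 15.6 CPM. Dlk1 had at most 16 UMIs in any group, and no order of its levels was read.

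**Figure D4:**
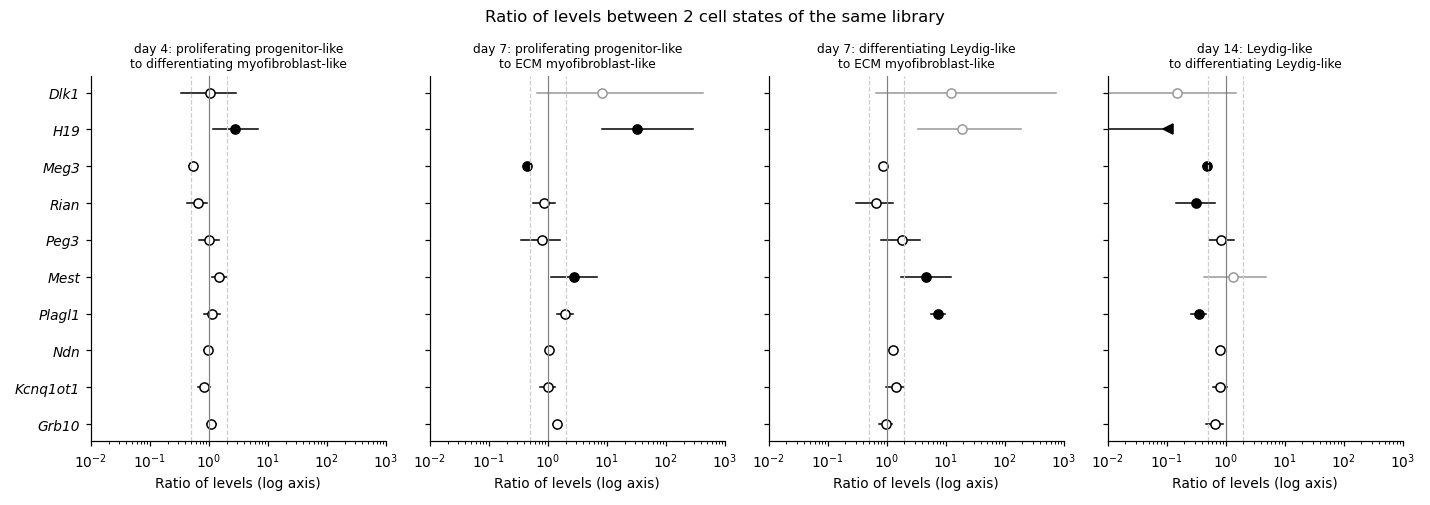
Ratio of each member's level between cell states of the same day (log axis, dashed lines at 0.5 and 2) in 4 panels, with exact 95% intervals, filled points past 2-fold with at least 20 UMIs, grey points under 20 UMIs and an arrowhead where the upper state had 0 UMIs. Plagl1 lay at 7.31 for day 7 differentiating Leydig-like to ECM myofibroblast-like cells and at 0.353 for day 14 Leydig-like to differentiating Leydig-like cells.

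By number, 1 of 10 members tested (H19) was over 2-fold higher and 0 lower in proliferating progenitor-like than in differentiating myofibroblast-like cells of day 4, beside 6.54% and 3.69% of all genes tested. On day 7, 2 of 9 (H19 and Mest) were higher and 1 (Meg3) lower in proliferating progenitor-like than in ECM myofibroblast-like cells, beside 6.6% and 4.1%. In differentiating Leydig-like against ECM myofibroblast-like cells of day 7, 2 of 8 (Plagl1 and Mest) were higher and 0 lower, beside 6.92% and 7.92%. In Leydig-like against differentiating Leydig-like cells of day 14, 0 of 8 were higher and 4 (H19, Meg3, Plagl1 and Rian) lower, beside 4.73% and 6.78%. All 8 had a ratio below 1 there, with a median of 0.572 against 0.965 over all genes tested. Dlk1 and Mest were not tested there, for too few UMIs. Mest was not lower, at 3.38 CPM (11 UMIs) in Leydig-like cells against 2.62 CPM (5 UMIs) in cluster 5, with overlapping intervals. H19 was tested there only through the 23 UMIs of 1 cell. Without the leading cells H19 and Meg3 were no longer called, and after thinning only Plagl1 was. Of the other imprinted genes, 3 of 17 were over 2-fold lower in that comparison and 0 higher. They were Peg10 at 0.0344 (2 against 35 UMIs), Igf2 at 0.41 (0.281–0.593) and Cdkn1c at 0.255 (0.114–0.534). One cell held 13 of the 26 Cdkn1c UMIs of the differentiating Leydig-like cells, and without it the ratio was 0.51, short of 2-fold. In the day 7 differentiating Leydig-like against ECM myofibroblast-like cells, 4 of 19 were over 2-fold higher and 1 lower. The higher genes were Nnat at 8.56 (15 against 11 UMIs), Igf2 at 7.5 (4.70–12.0), Peg10 at 3.54 and Gnas at 2.43.

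Over the 8 groups, the genes with the pattern most like that of Plagl1 were Eln, the elastin gene (Pearson r 0.982 of log2(CPM + 10)), Mdk, the growth factor midkine (0.974), and Mfap2, a microfibril protein (0.973), out of 10666 genes with at least 100 UMIs. Eln and Mfap2 are among the markers that named the differentiating Leydig-like state, so their likeness follows in part from how the groups were made. The 8 groups share 3 libraries. Eln ran from 27.7 CPM in day 7 ECM myofibroblast-like to 336 CPM in day 7 differentiating Leydig-like cells, and Mdk from 4.87 to 49.2 CPM in the same groups.

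**Figure D5:**
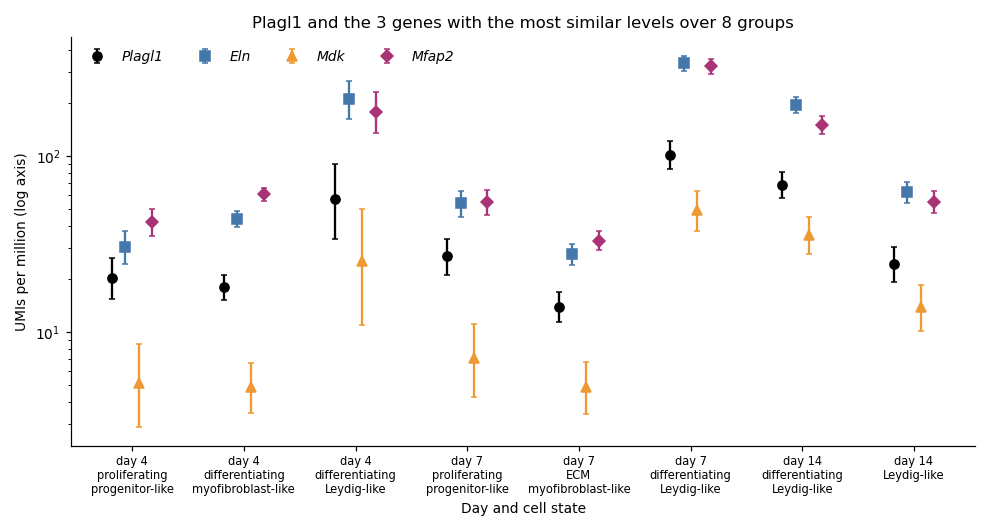
Level (CPM, log axis) of Plagl1, Eln, Mdk and Mfap2 in the 8 groups of 1 cell state on 1 day, with exact Poisson 95% intervals. All 4 were highest in differentiating Leydig-like cells of day 7, where Plagl1 was at 102 CPM and Eln at 336 CPM.

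For Meg3 the most alike were Ahnak2 (0.984), Tmem159 (0.979) and Lonrf1 (0.974), and for Kcnq1ot1 they were Maob (0.991) and Smim4 (0.977). Those of Ndn were Rpl10a, Scaper and 1810030O07Rik (0.977 to 0.973), those of Grb10 were Cops2 (0.974) and Rbm43 (0.966), and those of Mest were Rpl38-ps2, Nid2 and Tle4 (0.979 to 0.963). Rian had Zswim4, Klhl29 and Adamts10 (0.968 to 0.956) and Peg3 had Ece1, Ubn1 and Pdp1 (0.969 to 0.942). For Dlk1 and H19, which had 43 and 81 UMIs in all, the lists (Rpl36 and Spef1, then Qrsl1, Trim28 and Gm6483) rested on too few counts to be read. Among the members themselves the highest value was 0.903 for Peg3 and Kcnq1ot1, while Meg3 and Rian, neighbours in the genome, stood at 0.516. With 8 points these values are a description only.

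In single cells, most members were seen in a minority. With barcodes sharing 11 bases joined, a Meg3 UMI was seen in 1861 of 4042 cells, an Ndn UMI in 1895, Grb10 in 1102, Kcnq1ot1 in 706, Plagl1 in 510, Rian in 329, Peg3 in 244, Mest in 194, Dlk1 in 35 and H19 in 34. A cell type that lacks these genes was not present as a named group, so free RNA could not be set apart from low expression. Before joining, the share of cells with a Meg3 UMI was 32.7%, 42.5% and 29.0% on days 4, 7 and 14, and 17.5%, 22.9% and 15.5% after thinning to 1500 UMIs, which left out 753, 429 and 179 cells. The order of days was the one seen in CPM. After thinning and without joining, Meg3 and Rian were seen together in 20, 8 and 5 cells, where the product of their shares gives 9.11, 5.96 and 1.08. Dlk1 and Meg3 met in 1, 1 and 0 cells, and H19 and Dlk1 in none, which at these counts was too few to compare.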

How the data were processed

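Drop-seq libraries of days 4, 7 and 14 were analysed, 1 per day. The authors used STAR against GRCm38 and Drop-seq tools for the gene by barcode counts. The submitters' processing notes name STAR 2.5.2a, Picard 2.6.0 and SAMtools 1.2. The paper's methods name a later version of STAR, and which version gave the counts could not be told. The deposited values are raw UMI counts without normalization. The authors' merged table drops cells under 500 genes or over 10% mitochondrial UMIs, and no entry differed from the counts per day. Another 495 columns hold day 0 cells, which match no sample here and were not used.

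Depth was 5324400 to 12677110 UMIs per library and 594 to 80524 per cell. Levels are summed UMIs per 1000000 (CPM) with exact Poisson 95% intervals, ratios carry exact conditional binomial 95% intervals, and a count of 0 is given with the limit that 3 counts set. A ratio was called past 2-fold with at least 20 UMIs in the pair. With 1 library per day no test was made, since cells are not replicates.

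Clusters were made in Seurat 5.3.0 (R 4.3.3) from 2000 variable genes without members or other imprinted genes, with 20 components, 20 neighbours and resolution 0.8. A name needed at least 3 markers with 10 UMIs, detection in 10% of cells and 1.5 times the level of other cells. The list also needed a positive median log2 ratio. A name was withheld where at least 3 of the 10 leading genes belonged to other lists and outnumbered those of the list itself. Cluster 1 had 4 of 13 markers passing and stayed unnamed. These limits were chosen with the clusters already in view. Doublets were called with Scrublet in scanpy 1.11.5. Other steps used Python 3.11.15, numpy 2.4.6, scipy 1.17.1, pandas 2.3.3 and matplotlib 3.10.9. Scripts were tested on simulated data.

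Members and lists were chosen with earlier results of these data known. The genes named are all members, for each member the 3 genes with the highest Pearson r of log2(CPM + 10) over groups of at least 50 cells among genes with at least 100 UMIs, other imprinted genes past 2-fold between days, Malat1, Neat1 and state markers. Some genes under this rule are not reported here. Copg2 and Kcnq1 were named for their overlap with members, and Peg10 and leading genes of clusters after their values were seen. Alternatives were no cell filter, filtering anew, a stricter filter (800 genes, 5% mitochondrial), Scrublet doublets or the 5% of cells highest in Malat1 and Neat1 left out, other resolutions and components, imprinted genes kept in the clustering, a class per cell, equal weight per cell, thinning to 1500 UMIs, other minimums of UMIs and 1 CPM added. Chosen after seeing the data were joining barcodes that share 11 bases, leaving out the 6% of cells with the highest Scrublet scores, leaving out the leading cell of each member or other imprinted gene, centring on the median gene and using the unnamed cluster led by Eln. For that joining as an alternative for ratios between states, barcodes were joined only in the clustering that gave the states.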

Additional observations from a re-analysis of the deposited data

Results flagged for a closer look

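The tables per day held 876 barcodes with 404197 UMIs that the merged table leaves out, and 8 of the 10 members were seen there above the limit that a count of 0 allows (7.42 CPM over all 3 days). Meg3 was at 668 CPM (270 UMIs, exact Poisson 95% interval 591–753) and Kcnq1ot1 at 245 CPM (99 UMIs, 199–298), both above their level on any day in the merged table. Ndn was at 74.2 CPM, Plagl1 at 56.9 CPM, Grb10 at 47.0 CPM and Rian at 32.2 CPM on 13 UMIs. Peg3 and Mest were at 12.4 CPM each on 5 UMIs, and Dlk1 and H19 had 0. Malat1 in the same barcodes stood at 37034 CPM and Neat1 at 485 CPM, above their whole-culture levels of 5234–13702 and 49.8–352 CPM. How nuclear RNA bears on the high Meg3 and Kcnq1ot1 values was not tested.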

How the results depend on the processing

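Of 1092 member ratios under an alternative, 1029 moved by less than their counting interval or not at all, 60 moved further and 3 reversed. Among the 1029 are those of the alternatives that change only the minimum of UMIs, which leave each ratio as it was. The reversals were all H19 from day 4 to day 14, at 0 under the stricter filter, 0.401 after thinning and 0 without its leading cell. The number of members past 2-fold stayed within 1.5 times in 87 of 110 recounts. After thinning to 1500 UMIs it was 1 in place of 3 (day 7 to day 4), 3 in place of 1 (day 4 proliferating progenitor-like), 0 in place of 3 (day 7 proliferating progenitor-like), 1 in place of 2 (day 7 differentiating Leydig-like) and 1 in place of 4 (day 14 Leydig-like). With a minimum of 50 UMIs it was 3 in place of 5 (day 14 to day 4), 0, 1, 1 and 2 in the 4 state comparisons in that order, and with no minimum 4 in place of 2 (day 7 differentiating Leydig-like). Without the leading cell it was 0 in place of 1 (day 4 proliferating progenitor-like), 1 in place of 2 (day 7 differentiating Leydig-like) and 2 in place of 4 (day 14 Leydig-like). From day 7 to day 14 it was 4 in place of 2 under the stricter filter, and from day 4 to day 14 it was 2 in place of 5 with equal weight per cell and 3 with 1 CPM added. For day 4 proliferating progenitor-like cells it was 3 with 10 components, 3 with barcodes joined, 2 with equal weight per cell and 2 without cells high in Malat1 and Neat1. For day 7 differentiating Leydig-like cells it was 1 at resolution 1.2 and 1 with 30 components. A higher minimum by construction tests fewer members. Thinning lowers counts and leaves out cells under 1500 UMIs, and the cause of its moves and of the others was not tested. Under 3 clusterings that state had 32, 30 and 29 cells of day 7 and gave no value by name. The unnamed cluster led by Eln was therefore added to those cells. No paired analysis was possible because there was 1 library per day, and for the same reason no replicate could be left out.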
